A study of Mus musculus with 16 samples.

Results

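The promoters of the cytosolic ribosomal protein genes were examined in the open chromatin of developing mouse T cells. Members were the protein-coding autosomal genes of GENCODE M21 whose symbols are Rpl or Rps and a number, with an optional a, l or x ending, together with Rplp0, Rplp1, Rplp2 and Rpsa, and without the Rps6k kinases. The rule found 77 genes of 20807 protein-coding autosomal genes, 47 of the large subunit and 30 of the small subunit. Peaks of each list that overlapped the 1 kb on either side of an annotated transcription start site (TSS) of a gene were assigned to it. The series consists of 16 ATAC-seq libraries from wild type C57BL/6J mice 9 weeks old, in which a transposase cuts accessible DNA. Thymocytes of 4 mice were sorted by flow cytometry into those with neither co-receptor (double negative, DN), with both CD4 and CD8 (double positive, DP), with CD4 alone (SP4) and with CD8 alone (SP8), and the reads of the 4 mice were pooled before peaks were called. There is therefore 1 peak list per stage and no value per mouse, so no difference between stages could be set against the spread between animals and no test was run. In pooled cells, fewer cells with an open promoter and less opening per cell cannot be told apart.

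The lists held 150139 (DN), 107110 (DP), 115074 (SP4) and 104411 (SP8) peaks, none of them on chromosome X or Y. Peaks lay at all 5 pan-T cell markers, *Cd3e*, *Cd3d*, *Cd3g*, *Lck* and *Cd2*, at every stage. Markers of other cells were not all absent. *Ms4a1* (B cell), *Hba-a1* (erythroid) and *Foxn1* (thymic epithelium) had no peak at any stage, but *Lyz2* and *Csf1r* (myeloid) had a peak at DN only, and *Cd79a*, *Itgam* and *Epcam* had peaks at 3 or 4 stages. All 3 myeloid markers thus had a peak at DN and 1 of 3 at each later stage. The stage markers had a peak at every stage, and the height of their promoter peaks went with the labels for some and against them for others. By its percentile, the share of peaks in the same list with a lower fold enrichment, *Zbtb7b*, a factor of the CD4 lineage, was at 56.4 at SP4 and 5.08 at SP8. *Il2ra* and *Kit*, markers of DN cells, were highest at SP8 (93.4 and 93.6), *Ccr7*, a marker of mature cells, was highest at DN (98.3), and *Cd4* was at 37.2 at DN and 16.5 at SP4. The part of other cells in the DN values that follow was not tested.

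Ribosomal proteins coat the ribosomal RNA of the large and small subunits and are made in nearly equal amounts, since a ribosome needs each of them. Their messenger RNAs belong to the terminal oligopyrimidine (TOP) class, which start with a C followed by an unbroken run of pyrimidines and whose translation follows mTOR signalling. Thymocytes proliferate strongly at the late DN and early DP stages, whereas most DP and SP cells rest.

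Promoter sequences were taken from RefSeq (GRCm38.p6), which gave an entry for 57 of the 77 members. The sequences below are shown because they belong to those of the 3 highest and 3 lowest members that have an entry, to the member whose peak varied most between stages, and to members without any peak. They are written from 5′ to 3′ on the strand of the gene, from 130 bases before the RefSeq start to at most 20 bases after it, and capitals mark matches to the motifs described later. *Rplp0* (chr5:115559337-115559486, plus strand) and *Rpl37a* (chr1:72711130-72711279, plus strand) had some of the highest promoter peaks. *Rps15* (chr10:80292301-80292450, plus strand) and *Rpl7a* (chr2:26910677-26910783, plus strand) had some of the lowest. *Rpl19* (chr11:98026580-98026729, plus strand) varied most, and *Rpl10l* (chr12:66284382-66284531, minus strand), *Rpl39l* (chr16:10170098-10170245, plus strand) and *Rpl3l* (chr17:24727696-24727839, plus strand) had no peak.
Rplp0: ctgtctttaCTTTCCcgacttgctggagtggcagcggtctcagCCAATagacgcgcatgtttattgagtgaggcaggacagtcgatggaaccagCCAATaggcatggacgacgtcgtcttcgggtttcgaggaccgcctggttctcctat
Rpl37a: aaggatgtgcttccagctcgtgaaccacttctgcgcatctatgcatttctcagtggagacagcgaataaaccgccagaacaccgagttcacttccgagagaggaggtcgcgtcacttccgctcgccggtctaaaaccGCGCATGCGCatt
Rps15: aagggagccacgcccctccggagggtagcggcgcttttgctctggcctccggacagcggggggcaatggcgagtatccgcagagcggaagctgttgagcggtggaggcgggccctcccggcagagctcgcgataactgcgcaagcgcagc
Rpl7a: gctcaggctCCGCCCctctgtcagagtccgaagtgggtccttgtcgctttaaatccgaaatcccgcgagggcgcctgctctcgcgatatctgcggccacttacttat
Rpl19: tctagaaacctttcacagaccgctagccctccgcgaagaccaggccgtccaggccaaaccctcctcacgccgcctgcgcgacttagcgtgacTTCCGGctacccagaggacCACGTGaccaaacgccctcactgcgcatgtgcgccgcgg
Rpl10l: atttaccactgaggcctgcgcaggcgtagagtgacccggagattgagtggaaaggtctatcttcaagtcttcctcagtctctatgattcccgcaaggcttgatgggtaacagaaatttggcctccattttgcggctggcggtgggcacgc
Rpl39l: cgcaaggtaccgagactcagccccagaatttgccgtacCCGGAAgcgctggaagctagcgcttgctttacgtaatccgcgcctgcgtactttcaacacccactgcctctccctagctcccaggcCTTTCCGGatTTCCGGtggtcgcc
Rpl3l: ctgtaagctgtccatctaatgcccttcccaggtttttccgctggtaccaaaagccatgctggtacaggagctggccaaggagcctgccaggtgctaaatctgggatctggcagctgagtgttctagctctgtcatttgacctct

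The capitals in *Rplp0* are 2 CCAAT boxes and a CTTTCC, those in *Rpl37a* 2 overlapping NRF1 matches, that in *Rpl7a* a GGGCGG on the opposite strand, and those in *Rpl19* an ETS match and an E-box. *Rpl39l*, without a peak, held 3 ETS matches and a CTTTCC in the stretch shown, so these letters were found at members with and without a peak. Counted from the RefSeq start, with negative positions before it, the summit of the tallest *Rplp0* peak lay between -55 and -46, inside the stretch shown. The summits of *Rpl19* (232 to 440) and *Rpl7a* (-732 to -230) lay outside their stretches at all 4 stages.

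Promoter peaks were called at 74 of the 77 members (96.1%) at every stage, against 72.8% of all protein-coding autosomal genes at DN and 67.6%, 65.9% and 65.0% of them at the later stages DP, SP4 and SP8. At all 4 stages together the shares were 96.1% of members and 62.9% of all genes. The 95% Wilson interval of the members' share, which covers counting error only, was 89.2% to 98.7%. No member was called at some stages and not at others, whereas 2318 of all genes were. The remaining 3 members, *Rpl3l*, *Rpl10l* and *Rpl39l*, had no peak at any stage. *Rpl3l* is the paralog of *Rpl3* used in heart and skeletal muscle, and *Rpl10l* and *Rpl39l* are paralogs of X-linked genes used in the male germ line. A further paralog, *Rps27l*, which p53 is known to induce, had a peak at all 4 stages, at percentiles 78.5 (DN), 84.3 (DP), 77.6 (SP4) and 80.8 (SP8) of fold enrichment.

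**Figure D1:**
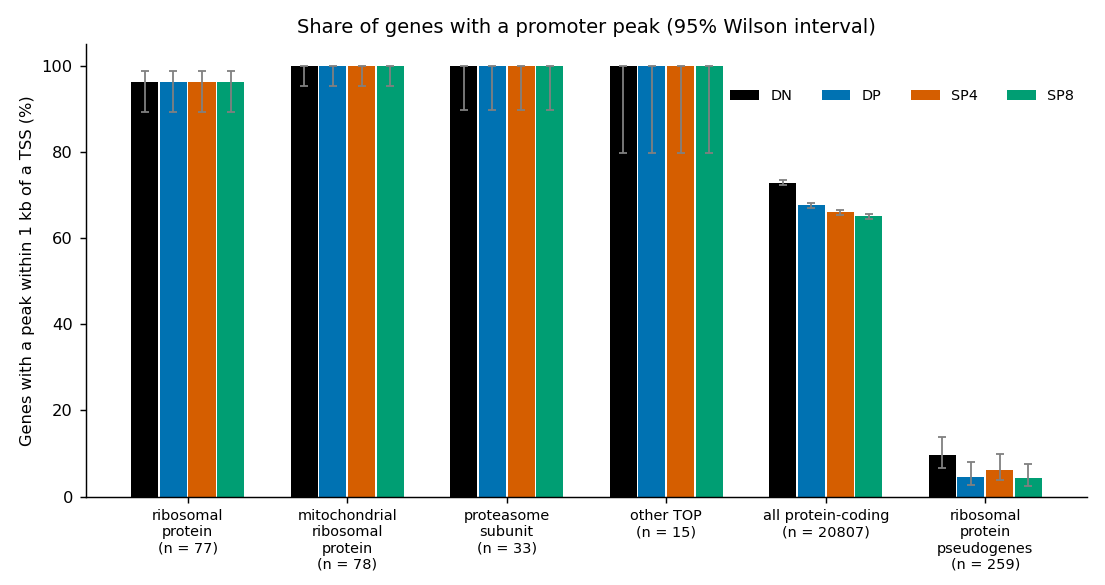
Share of genes (%) with a peak within 1 kb of a TSS at each stage, for the ribosomal protein genes, 3 other lists of housekeeping genes, all protein-coding autosomal genes and ribosomal protein pseudogenes. Error bars are 95% Wilson intervals. The 4 bars of the ribosomal protein genes stand at 96.1%, and those of the pseudogenes between 4.25% and 9.65%.

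Other housekeeping lists also had peaks throughout. All 78 genes for mitochondrial ribosomal proteins, all 33 autosomal proteasome subunit genes and all 15 autosomal genes of a list of other TOP messenger RNAs had a peak at every stage, as did 6 of 6 ribosome components under other names, such as *Fau* and *Rack1*. Ribosomal protein pseudogenes, most of which are copies of spliced messenger RNAs without their promoters, had few peaks. Of 259 annotated ones, 25 (9.65%) had a peak within 1 kb at DN, and 12 (4.63%), 16 (6.18%) and 11 (4.25%) had 1 at DP, SP4 and SP8. The median distance of the summit to the annotated start was 763 bp at DN.

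Peak height was described by the same percentile, from the fold enrichment over the local background of the tallest peak of each gene. The median percentile of the 74 members with a peak was 74.1 (DN), 82.6 (DP), 81.1 (SP4) and 80.8 (SP8). For all genes with a promoter peak the medians were 81.2, 82.6, 81.6 and 81.9. The members' median was lower than that of all genes at DN, in both subunits, and nearer to it at the 3 later stages. Genes called at all 4 stages, as the 74 members were, had medians of 83.5, 83.9, 82.6 and 82.6. The median of the Rpl genes went from 73.7 at DN to 80.0 at DP, and that of the Rps genes from 77.1 to 85.2. At the top of the lists, 14 of the 77 members (18.2%) stood at or above percentile 90 at all 4 stages, against 13.0% of all genes. Among genes called at all 4 stages the order was the other way, 18.9% of the 74 members against 20.7% of all genes, and at each single stage 20.3% (DN), 25.7% (DP), 24.3% (SP4) and 23.0% (SP8) of members with a peak stood there, against 27.7%, 30.01%, 29.2% and 29.6% of all genes with a peak. The 14 members included *Rplp0*, *Rpl14*, *Rpl15*, *Rpl27*, *Rpl30*, *Rpl37*, *Rpl37a*, *Rps13*, *Rps25*, *Rps26*, *Rps27a* and *Rps29*. Mitochondrial ribosomal protein genes had higher medians, 86.2 at DN and 87.2 at DP.

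**Figure D2:**
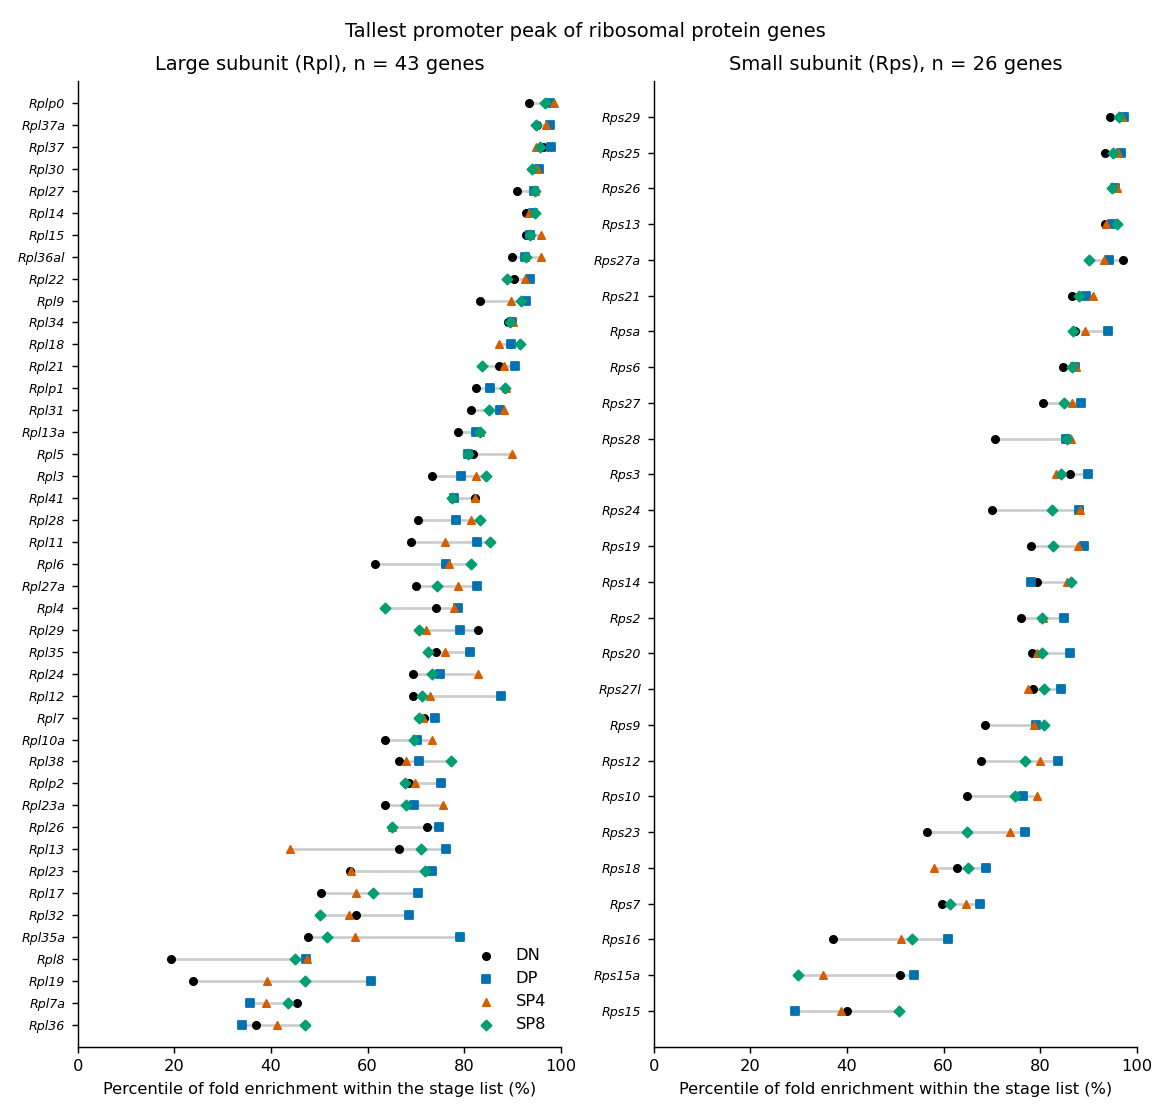
Percentile (%) of fold enrichment of the tallest promoter peak for 69 of the 74 ribosomal protein genes with a peak, 43 Rpl and 26 Rps, ordered by their median over stages. Each point is the value of 1 pooled stage list and the grey line spans the 4 stages. By median, the genes run from *Rplp0*, with values of 93.4 to 98.5, down to *Rpl36*, with values of 34.0 to 47.0. The lowest single value is 19.3, of *Rpl8* at DN.

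Percentiles near 100 leave little room for differences between stages. *Rplp0*, the scaffold of the ribosomal stalk, was at percentiles 93.4 (DN), 97.7 (DP), 98.5 (SP4) and 96.8 (SP8), with fold enrichments of 18.9, 24.9, 29.0 and 25.5. *Rps29*, a zinc-binding protein of the small subunit head, stood at 94.4, 97.3, 97.0 and 96.3. *Rpl37a* stood at 94.96, 97.8, 97.0 and 94.8. All 3 were above 93 at each stage and highest at DP or SP4. *Rpl37* followed at 96.3, 98.0, 94.9 and 95.6, and *Rps25* at 93.4, 96.7, 96.0 and 94.97. *Rps25* is needed for initiation at several viral internal ribosome entry sites, and its start lies 95 bp from that of *Trappc4* on the opposite strand.

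The lowest promoters still had a peak at every stage. *Rpl36* was at percentiles 37.0 (DN), 34.0 (DP), 41.3 (SP4) and 47.0 (SP8). *Rps15*, whose tail reaches towards the decoding site, stood at 40.0, 29.3, 38.8 and 50.8, with fold enrichments of 4.74, 3.99, 4.89 and 6.29. *Rpl7a* stood at 45.3, 35.7, 39.0 and 43.5. These 3 were lowest at DP, against the direction of most members. At *Rpl36* and *Rpl7a*, however, the tallest peaks at DN and DP were different peaks. Counted from the nearest start, with negative positions before it, the summits at DN and DP lay at 671 and -5 bp at *Rpl36*. At *Rpl7a* they lay at -689 and -229 bp. *Rps15a* was at 50.9, 53.9, 35.0 and 29.9, and was higher at DN and DP than at the SP stages. *Rpl19* stood at 23.9, 60.8, 39.1 and 47.1, with fold enrichments of 3.83, 6.83, 4.93 and 5.81, and was lowest at DN and highest at DP.

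The 5 members with the widest range across stages had no common order of stages. *Rpl19* had the widest, 36.9 percentile points. *Rpl13* stood at 66.4 (DN), 76.3 (DP), 44.0 (SP4) and 71.0 (SP8), so that its low value was at SP4 alone. *Rpl35a*, a Diamond-Blackfan anaemia gene, stood at 47.7, 79.1, 57.5 and 51.6, high at DP alone. *Rpl8*, which lies near the peptidyl transferase centre, stood at 19.3, 47.2, 47.4 and 45.0 and was low at DN alone. The median range over the 74 members was 9.40 percentile points, against 8.73 for the 13089 genes called at all 4 stages. With equal numbers of peaks from each list it was 16.9 against 12.7, and by q-value 6.26 against 6.97, so whether members or all genes varied more depended on the scale.

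DN and DP differed in the same direction for most members. Of the 74 members, 65 (87.8%) had a higher percentile at DP than at DN, against 56.4% of the 13089 genes called at all 4 stages, and the median difference was 4.43 percentile points against 0.60. DN was the lowest of the 4 stages for 44 members (59.5%), against 31.5% of all genes, and DP the highest for 37 of the 74, against 29.7% of all genes. Fold enrichment itself, with a median of 9.57 at DN and 12.6 at DP, was higher at DP for 65 members as well, while 59.3% of all genes were higher at DP by this measure. The same direction held among members and genes of like height. Between percentiles 64.0 and 87.3 at DN, the members' quartiles, 31 of 36 members (86.1%) and 58.9% of 5865 genes were higher at DP.

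Compared with DN, 56 of 74 members (75.7%) were higher at SP4 and 51 (68.9%) at SP8, against 50.6% and 50.8% of all genes. These comparisons share the DN list, so a low DN value enters each of them. Between the later stages the members moved the other way, and 54 of 74 (73.0%) were lower at SP8 than at DP, against 55.8% of all genes. By fold enrichment itself, 41 of 74 members (55.4%) and 66.7% of all genes were higher at SP8 than at DP, so the direction from DP to SP8 depended on the scale.

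**Figure D3:**
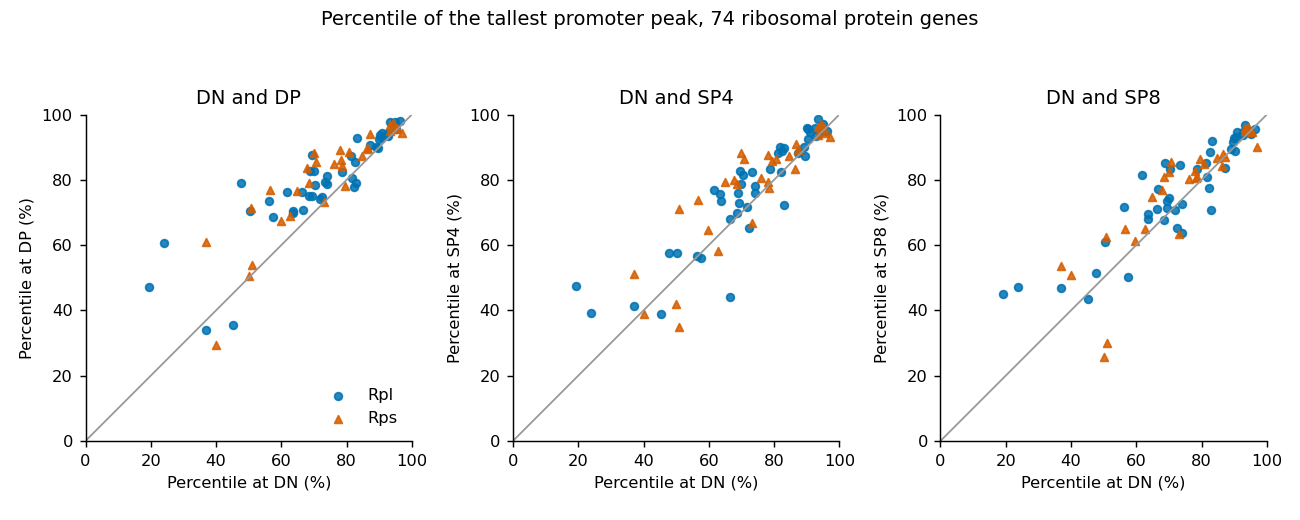
Percentile (%) of the tallest promoter peak at DN (horizontal axis) and at DP, SP4 or SP8 (vertical axis) for the 74 ribosomal protein genes with a peak, with Rpl genes as circles and Rps genes as triangles. Each point is 1 gene in 2 pooled lists, and the grey line marks equal percentiles. Of the 74 genes, 65 lie above the line in the DP panel, 56 in the SP4 panel and 51 in the SP8 panel.

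The order DN below DP was seen in most roles. Of the stalk proteins, which recruit translation factors, all 4 were higher at DP than at DN. *Rplp1* went from 82.5 to 85.4, *Rplp2* from 68.6 to 75.1 and *Rpl12* from 69.4 to 87.6. At the later stages the tallest *Rpl12* peak belonged to an annotated start of a transcript that is not among its basic coding ones, and with basic coding starts the values at DP, SP4 and SP8 were 59.4, 56.3 and 61.5, below the 69.4 at DN. *Rps18* was affected in the same way, with 12.6 in place of 62.8 at DN.

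All 7 genes around the exit of the nascent chain tunnel (*Rpl17*, *Rpl19*, *Rpl22*, *Rpl23a*, *Rpl26*, *Rpl31* and *Rpl35*) were higher at DP than at DN. *Rpl22*, whose loss is known to arrest alpha-beta T cell development, stood at 90.4 (DN), 93.7 (DP), 92.6 (SP4) and 88.9 (SP8). *Rpl17* went from 50.3 to 70.4, then 57.7 and 61.1, but its tallest peak at DN was not the one of the later stages. Its summit lay at -494 bp from the nearest start at DN and at 62, 69 and 61 bp later. *Rpl26*, by contrast, went from 72.4 and 74.7 to 65.1 at both SP stages.

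In Diamond-Blackfan anaemia, the loss of a copy of a ribosomal protein gene causes a failure of red cell production. The 6 genes on the fixed list for this role were lowest at DN. So were 59.5% of all members and 31.5% of all genes. The list does not hold every gene of the disease. *Rpl5* and *Rps26*, counted under other roles, were lowest at DP (80.7) and SP8 (94.9). *Rpl11*, also counted under another role, was lowest at DN (68.9). *Rps19*, the gene most often mutated in the disease, stood at 78.1 (DN), 89.1 (DP), 87.7 (SP4) and 82.6 (SP8). *Rps24* stood at 69.9, 88.1, 88.2 and 82.5. In both genes the SP8 value lay between those of DN and the other stages. *Rps10* went from 64.9 at DN to 79.3 at SP4, and *Rps7* from 59.7 at DN to 67.5 at DP.

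The 7 genes at the channel and exit of the messenger RNA mostly had tall peaks, with a median of 86.3 at DN and 89.8 at DP. *Rps26* stood at 95.3, 95.5, 95.9 and 94.9. *Rps28* went from 70.7 at DN to 85.4 at DP, 86.4 at SP4 and 85.5 at SP8. *Rpsa*, a small subunit protein whose lack leaves people without a spleen, was highest at DP, at 94.1, against 87.3, 89.2 and 86.8 at the other stages.

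Of the pair that carries the 5S RNA into the large subunit and restrains MDM2, *Rpl11* was lower at DN than at DP (68.9 and 82.7), and *Rpl5* was not (81.7 and 80.7). Of the decoding site pair, *Rps23* went from 56.6 to 76.9 while *Rps15* went the other way. *Rps27a*, which is made as a fusion with ubiquitin, was the reverse of most members, with its highest value at DN (97.0) and then 94.3, 93.2 and 90.1. Altogether 9 members were not lower at DN than at DP. Beside *Rpl5*, *Rpl7a*, *Rpl36*, *Rps15* and *Rps27a* they included *Rpl29*, *Rpl41* and *Rps14*, and the largest difference among the 9 was 10.7 percentile points, at *Rps15*. At *Rpl7a* and *Rpl36* the values at DN and DP came from different peaks.

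Of the 44 members outside these roles, 39 were higher at DP than at DN, with medians of 76.1 and 80.9.

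In the other lists DP was above DN for 53 of 78 mitochondrial ribosomal protein genes (67.9%), 26 of 33 proteasome genes (78.8%) and 11 of 15 other TOP genes (73.3%), with median differences of 0.91, 3.70 and 3.09 percentile points. These shares stand beside 56.4% of all genes and their median difference of 0.60, and by q-value the mitochondrial list was at 57.7% and all genes at 53.3%. At SP8 25 of 33 proteasome genes were above DN, with a median difference of 3.12 points, against 2.62 for the members. DN was the lowest stage for 57.6% of proteasome genes, near the members' 59.5%. It was lowest for 46.7% of other TOP genes and 38.5% of mitochondrial ribosomal protein genes.

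Peaks of the members were also wider after DN. The median width of the tallest peak was 572.5 bp at DN and 772, 740 and 772 bp at the 3 later stages, against 591, 687, 667 and 701 bp for all genes. Of the 74 members, 61 had a wider tallest peak at DP than at DN (82.4%, against 57.5% of all genes). The shares were 87.9% of proteasome genes, 80.0% of other TOP genes and 60.3% of mitochondrial ribosomal protein genes, so the widening was not particular to the members. A single peak lay in the window of 28 members (37.8%) at DN and of 42 (56.8%) at DP, against 32.9% and 44.6% of all genes. When the widths of all peaks in the window were added, the members still had a smaller sum at DN (811.5 bp) than later (863 bp at DP, 917 bp at SP4, 939 bp at SP8), and 54 of 74 were wider at DP than at DN, against 47.6% of all genes. By this sum 69.7% of proteasome genes, 73.3% of other TOP genes and 44.9% of mitochondrial ribosomal protein genes were wider at DP.

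The median distance from the summit to the nearest TSS was 64 bp at DN and 57.5, 52.5 and 63 bp at the 3 later stages, against 119, 103, 104 and 97 bp for all genes. Summits were within 200 bp of a TSS for 63 to 65 of the 74 members (85.1% to 87.8%), against 62.8% to 68.4% of all genes. The shares were 78.8% to 93.9% of proteasome genes, 80.0% to 93.3% of other TOP genes and 70.5% to 79.5% of mitochondrial ribosomal protein genes. Proteasome genes had shorter median distances than the members, 53, 19, 21 and 26 bp. The summit moved by a median of 26.5 bp across the 4 stages, and by at most 50 bp for 47 members (63.5%), against 51 bp and 49.8% of all genes. It moved by at most 50 bp for 63.6% of proteasome genes, 53.3% of other TOP genes and 48.7% of mitochondrial ribosomal protein genes. *Rps29* and *Rpl36al* had the same summit base at all 4 stages. Members have a median of 6 annotated starts and all genes 3, and more starts shorten the distance to the nearest, so the distance to the RefSeq start was taken as well. It was 92, 90, 74 and 71.5 bp for members at DN, DP, SP4 and SP8, against 136, 115, 114 and 107 bp for all genes.

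**Figure D4:**
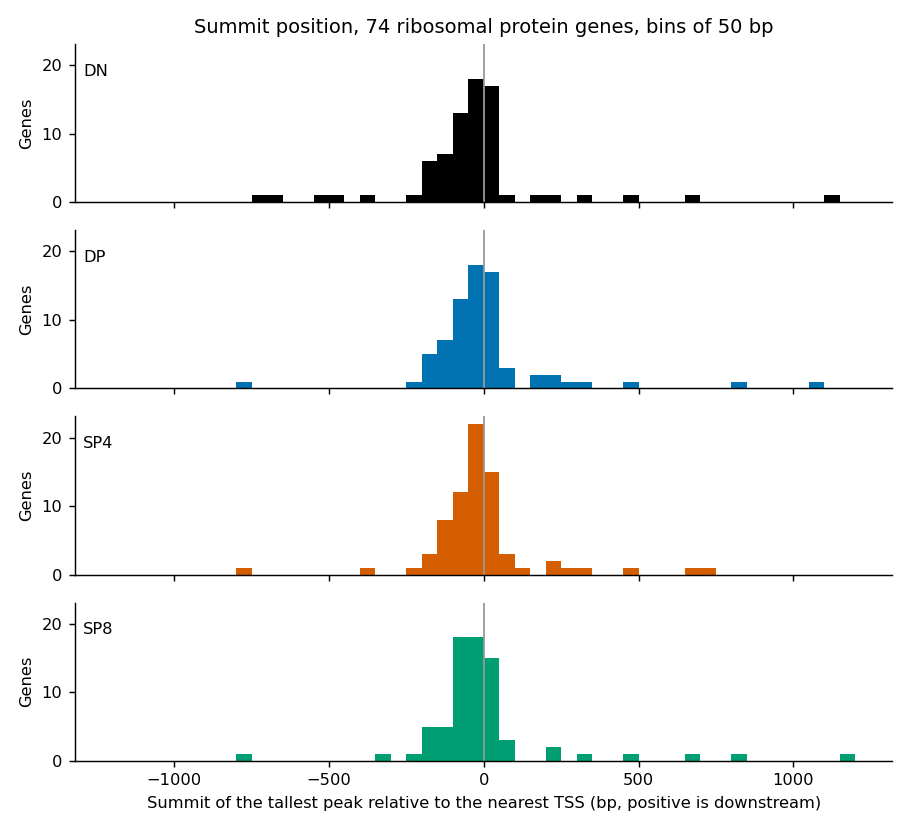
Position of the summit of the tallest peak relative to the nearest TSS (bp, positive values downstream) at each stage for the 74 ribosomal protein genes with a peak, as numbers of genes in bins of 50 bp. Most summits lie within 200 bp of the start, and more lie upstream than downstream, 50 of 74 at DN and 45 of 74 at DP.

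Several properties that did not choose the members were common among them. Members were short, with a median length of 3368 bp against 17629 bp for all genes. Small nucleolar RNAs, which guide the modification of ribosomal RNA, were annotated in 27 of the 77 (35.1%), against 1.17% of all genes. The hosts had a median percentile of 76.5 and the other members with a peak 82.5, and both groups overlapped over nearly their whole ranges (41.3 to 96.0 and 39.1 to 97.2). Among all genes the order was the other way, at 84.7 for hosts and 82.8 for the others. A divergent start of another gene lay within 1 kb of 13 members (16.9%), against 9.19% of all genes. The closest were *Ndufa7* at 10 bp from *Rps28*, *Rab13* at 44 bp from *Rps27*, *Lias* at 53 bp from *Rpl9*, *Nkiras1* at 69 bp from *Rpl15* and *Sphk2* at 69 bp from *Rpl18*. A peak at such a site can belong to either gene, and members with a divergent neighbour had a median percentile of 85.7, against 79.7 for the others. The same was seen among all genes, at 87.4 and 81.9.

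Motifs were searched as exact letters in the stretch from 250 bases before to 50 after the RefSeq start, in 57 members and 15703 protein-coding genes. On either strand, the letters CCGGAA of ETS factors were found in 28 members (49.1%, 95% Wilson interval 36.6% to 61.7%), against 20.1% of all genes and 27.9% of the genes with a peak at all 4 stages. This share was like that of mitochondrial ribosomal protein genes (56.5%) and proteasome genes (48.1%). The letters AANATGGC of YY1 were found in 9 members (15.8%), against 6.68% of all genes and 30.4% of mitochondrial ribosomal protein genes. Genes with a peak at all 4 stages stood at 8.36% for YY1. The GGGCGG of SP and KLF factors was found in 57.9% of members and 48.9% of all genes, but in 64.8% of the genes with a peak at all 4 stages. For the members, all genes and the genes with a peak at all 4 stages, the shares were 31.6%, 38.4% and 38.0% for the CCAAT of NFY, 8.77%, 8.13% and 10.0% for the E-box CACGTG, and 3.51%, 3.78% and 5.36% for the NRF1 letters GCGCATGC. In the same order they were 8.77%, 14.8% and 12.4% for the RUNX letters TGTGGT and 5.26%, 13.0% and 6.80% for the letters TATAAA.

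**Figure D5:**
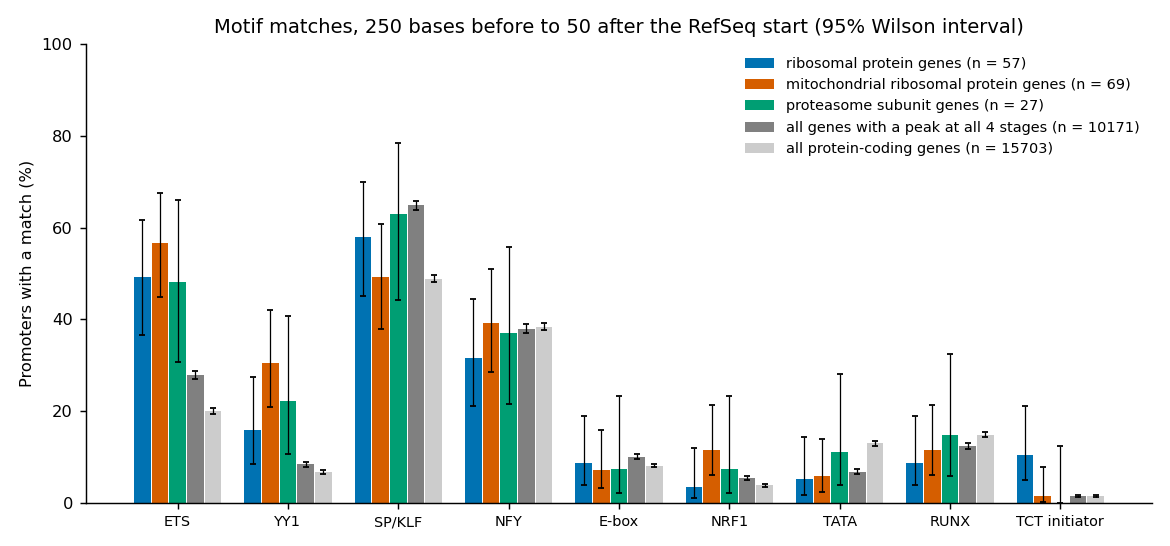
Share of promoters (%) with an exact match to each motif, on either strand or, for the TCT initiator, on the strand of the gene. Bars are gene lists and error bars 95% Wilson intervals. The ribosomal protein genes stand above all genes for ETS (49.1% and 20.1%) and the TCT initiator (10.5% and 1.53%).

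Pyrimidine stretches on the strand of the gene were common at the members. The letters CTTTCC were found in 22 of 57 members (38.6%), against 13.8% of all genes, 14.0% of those with a peak at all 4 stages, 17.4% of mitochondrial ribosomal protein genes and 18.5% of proteasome genes. The longer CTCTTTCC of the TCT initiator, which contains CTTTCC, was found in 6 members (10.5%), 1.53% of all genes and 1.504% of those with a peak at all 4 stages. In the 50 bases on either side of the start, 47 members (82.5%) had an unbroken run of at least 8 pyrimidines, against 34.6% of all genes, 31.5% of those with a peak at all 4 stages, 33.3% of mitochondrial ribosomal protein genes, 22.2% of proteasome genes and 5 of 9 other TOP genes. The median of the longest run was 10 bases for members and 6 for all genes. Stretches of 30 bases around CTCTTTCC, in capitals, are shown for the 6 members because their share with these letters, though small, was above that of all genes. They are *Rpl11* (chr4:136053440-136053469, minus strand), *Rpl18* (chr7:45718061-45718090, plus strand), *Rpl26* (chr11:68901578-68901607, plus strand), *Rpl28* (chr7:4792954-4792983, plus strand), *Rpl35a* (chr16:33056471-33056500, plus strand) and *Rpl6* (chr5:121204521-121204550, plus strand).
Rpl11: cagctatgcctCTCTTTCCccctctcccct
Rpl18: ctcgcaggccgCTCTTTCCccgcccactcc
Rpl26: cgcgtgtagttCTCTTTCCttttgcggcca
Rpl28: ctctcgtgtctCTCTTTCCgtctccggccg
Rpl35a: ggcttgccttcCTCTTTCCgccatcttggc
Rpl6: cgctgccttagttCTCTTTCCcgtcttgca

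From the RefSeq start, the first base of the match lay 65 bases before in *Rpl11*, at the start itself in *Rpl28*, and 1, 23, 29 and 33 bases after it in *Rpl18*, *Rpl26*, *Rpl35a* and *Rpl6*. The tallest peak assigned to *Rpl18*, such as chr7:45714853-45715539 at DN, lay at another annotated start, near that of *Sphk2*, and did not hold its stretch. The median GC content was 58.3% for member promoters, 57.3% for all genes and 61.0% for the genes with a peak at all 4 stages, and the median number of CpG was 22, 15 and 21.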

How the data were processed

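Peaks were taken as deposited, 1 list for each of DN, DP, SP4 and SP8 thymocytes. By the study's methods, the authors trimmed the barcodes, mapped paired reads to mm10 (BWA), dropped duplicates (Picard), kept proper pairs with a unique position, thinned every library to the median depth, merged the libraries of a stage and ran MACS2 at 5% FDR with the reads shifted for the transposase. Reads without a unique position are lost, also where a gene and its pseudogene copies are alike. The deposited lists hold a fold enrichment, which is a ratio of the signal at the summit to the local background, with a −log10 q-value and the offset of the summit, all as the authors' peak caller wrote them. No depth per library was used here. The 4 lists differ in length, which moves percentiles, so equal numbers of peaks (104411, by q-value) were also compared.

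Starts were those of all transcripts of GENCODE M21. Peaks were assigned with Python 3.11.15, numpy 2.4.6, pandas 2.3.3 and pysam 0.24.0, and figures drawn with matplotlib 3.10.9. On simulated peaks, the tallest peak and the count were right for 1208 of 1208 genes of chromosome 1, and 500 of 500 planted motifs were found. Coordinates are counted from 1, and 0 peaks reached past the end of a chromosome of GRCm38.p6. Of several RefSeq starts, the most 5′ within 50 bp of a basic coding start was used.

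The members and lists were chosen with earlier results of these data known. The genes named are members without a peak at some stage, the 5 highest and 5 lowest by median percentile, the 5 with the widest range, the 5 closest divergent neighbours and fixed lists of roles. *Rpl36al* was included as an "a, l" ending. The list of proteasome genes held 34 names and that of other TOP genes 16, of which 33 and 15 were found among autosomal genes. The genes *Rpl29* and *Rpl41*, named for their direction from DN to DP, and the 6 genes with CTCTTTCC were chosen after their values were seen, as were the members at or above percentile 90 at all 4 stages. Values of some genes that these rules name are not reported here.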

Additional observations from a re-analysis of the deposited data

How the results depend on the processing

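Counts of members with a peak changed by less than 1.5 times under every alternative run (200 bp upstream, 500 bp windows, summit in the window, q of at most 0.001, equal numbers of peaks, basic or RefSeq starts, a wider symbol rule). The members' median percentile at DN, DP, SP4 and SP8 was 82.7, 87.4, 88.5 and 87.9 by q-value. Genes called at all 4 stages had medians of 87.2, 87.3, 86.7 and 87.0, so the members were below them at DN and above them at DP, SP4 and SP8. Among promoter peaks the medians were 36.2, 49.9, 48.9 and 47.6 for members and 55.8, 53.4, 52.2 and 51.5 for these genes. With equal numbers of peaks they were 62.7 and 76.5 at DN. The median range of the members was 6.26 by q-value and 16.9 with equal numbers. Their summed widths were 811.5, 863, 917 and 939 bp. Their median summit distance from the RefSeq start was 92 bp at DN and 90 bp at DP.

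In the 100 bp around the summit, a shorter window, the share of members with a match at DN, DP, SP4 and SP8 was 35.2%, 25.9%, 24.1% and 35.2% for ETS (all genes 10.6%, 13.1%, 12.6% and 12.8%). It was 11.1%, 11.1%, 13.0% and 13.0% for YY1 (all genes 2.03%, 2.81%, 2.72% and 2.50%). It was 13.0%, 24.1%, 18.5% and 9.26% for SP/KLF, below all genes at DN, SP4 and SP8 (21.1%, 24.0%, 24.1% and 26.2%). For CTTTCC it was 9.26%, 3.70%, 7.41% and 13.0% (3.91%, 3.48%, 3.66% and 3.51%), for NFY 20.4%, 18.5%, 22.2% and 18.5% (19.7%, 19.8%, 21.9% and 22.4%), and for RUNX 7.41%, 7.41%, 5.56% and 1.85% (7.39%, 5.82%, 6.06% and 5.69%). For the E-box it was 3.70%, 5.56%, 3.70% and 1.85%, for TATA 1.85%, 0%, 0% and 1.85%, for the TCT initiator 5.56%, 1.85%, 5.56% and 5.56% and for NRF1 0% throughout, with all genes at 3.18% to 3.69%, 0.97% to 1.17%, 0.37% to 0.44% and 0.65% to 0.90%.

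Alternatives for the order of DN and DP were chosen after seeing the data. Members lower at DN than at DP were 73 of 74 with equal numbers of peaks (all genes 81.7%), 64 of 73 in 200 bp upstream (61.2%), 64 of 74 with basic coding starts (58.6%), 61 of 74 among promoter peaks (49.5%), 64 of 74 among genes called at all 4 stages (54.7%) and 61 of 74 by q-value (53.3%). With DP between the members' quartiles, 32 of 36 members and 58.1% of genes were lower at DN.

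No paired analysis was possible because the reads of the 4 mice were pooled before peaks were called, and no mouse was left out for the same reason. A gene without a peak has no value under the threshold of the lists.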
